A study of Mus musculus with 4 samples.

Results

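The 8 genes described here are 5 complement components, C1qa, C1qb, C1qc, C3 and Cfb, the positive regulator Cfp and the anaphylatoxin receptors C3ar1 and C5ar1. They were found by symbol, and each symbol matched 1 of the 31053 genes counted. Live CD45+ leukocytes were sorted from 3 mm excisional wounds of mouse dorsal skin, and single cells were sequenced in droplets. The study asked how loss of Angptl4, a secreted angiopoietin-like protein, alters the leukocytes of a healing wound. There were 4 libraries, and each was the only one of its condition, so no value carries a replicate error. Mice with the gene (Angptl4+/+, called wild-type below, labelled strain C57BL6/J) were sampled at 1 day postwounding (dpw) and at 5 dpw. Mice without it in the whole body (Angptl4-/-, called knockout below, UNQ171 line, under the same strain label) were sampled at the same 2 time points. All mice were male and 8 weeks old, all were wounded, and no unwounded skin was analysed here. The number of mice behind a library was not given in the sources used here. With 1 library per condition no test of a difference was made, and each interval in parentheses is a 95% interval that covers counting error only. Differences between conditions are given as log2 ratios, and a 2-fold difference (a log2 ratio of 1 in size) is used as a rule of size and not as a test.

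Complement is a cascade of plasma and tissue proteins that tags microbes, dying cells and debris for uptake and calls in phagocytes. C1q, built from A, B and C chains, is the recognition molecule of the classical pathway, and macrophages are a known source of it in tissues. C3 is the point where the pathways meet. Factor B (Cfb) forms the alternative pathway convertase that cleaves C3, and properdin (Cfp) stabilises that convertase. The small fragments C3a and C5a act on the receptors C3aR (C3ar1) and C5aR1 (C5ar1) of myeloid cells, and C5a is a strong attractant of neutrophils.

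The 3 C1q genes lie side by side on the reverse strand of chromosome 4 within 18.7 kb of GRCm38. In order, they are C1qb (ENSMUSG00000036905, 136880129 to 136886187), C1qc (ENSMUSG00000036896, 136889804 to 136893065) and C1qa (ENSMUSG00000036887, 136895917 to 136898803). Each is annotated as protein coding with 3 exons, and the gaps between them are 3.62 kb and 2.85 kb. The RefSeq promoter table (GRCm38.p6, 250 bases before to 50 bases after each start site) held 6 of the 8 genes, namely C1qb, C1qc, C3, Cfp, C3ar1 and C5ar1. The promoters of C1qb (chr4:136886151-136886450, reverse strand) and C1qc (chr4:136892865-136893164, reverse strand) are printed 5′ to 3′ because these neighbouring genes had nearly the same distribution over the cells. Capitals mark a match to GAGGAA, the core of the motif of the myeloid transcription factor PU.1, searched on both strands.

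C1qb: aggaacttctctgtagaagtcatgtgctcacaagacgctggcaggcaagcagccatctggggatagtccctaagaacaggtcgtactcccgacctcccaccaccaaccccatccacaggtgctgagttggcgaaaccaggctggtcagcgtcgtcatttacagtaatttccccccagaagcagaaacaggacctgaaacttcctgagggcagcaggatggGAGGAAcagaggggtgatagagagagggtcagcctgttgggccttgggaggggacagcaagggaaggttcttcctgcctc
C1qc: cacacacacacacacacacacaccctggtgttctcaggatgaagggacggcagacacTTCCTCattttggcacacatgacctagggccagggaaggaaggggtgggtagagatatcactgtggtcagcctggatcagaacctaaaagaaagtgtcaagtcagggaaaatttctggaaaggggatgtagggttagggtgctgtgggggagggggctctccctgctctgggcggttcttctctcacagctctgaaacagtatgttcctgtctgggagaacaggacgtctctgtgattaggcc

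The match starts 30 bases before the start site of C1qb and reads forward, and it starts 193 bases before that of C1qc, where it lies on the other strand and appears as its reverse complement. Cfp held 2 such matches, both inside its first 50 transcribed bases on the other strand, and C3, C3ar1 and C5ar1 held none in this window. GAGGAA was present in 28.3% of the 32851 promoters in the table. A match describes these letters only, and its absence from the window says nothing about the factor.

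The deposited matrices held 20069 barcodes, of which 19827 had at least 200 detected genes and at most 10% mitochondrial UMIs (unique molecular identifiers, each counting 1 captured transcript). Passing cells numbered 4738 to 5346 per library, with medians of 3735.5 to 4975.5 UMIs, and library pairs shared 4 to 15 barcodes. Clusters were named from marker lists without any complement gene, which gave 6 classes. In wild-type wounds macrophage-like cells numbered 1152 at 1 dpw and 1560 at 5 dpw, and in knockout wounds 845 and 649. Of 16 macrophage markers, 15 were found in a larger share of these cells than of the rest, and 11 in at least 25% of these cells. Neutrophil-like cells numbered 2696 to 3887 per library and carried all 12 of their markers. Monocyte-like cells numbered 127 to 154, dendritic cell-like cells 88 to 311 and NK cell/T cell-like cells 36 to 226. Keratinocyte markers summed to 3.43 to 13.5 CPM (UMIs per 1000000 UMIs) over all cells, fibroblast markers to 1.68 to 6.13 CPM and endothelial markers to 30.2 to 36.1 CPM. Erythroid markers stood at 599.6 CPM in knockout wounds at 5 dpw against 0.729 to 3.83 CPM in the other libraries. Angptl4 had 33 and 61 UMIs in macrophage-like cells of wild-type wounds at 1 and 5 dpw and 0 in both knockout libraries.

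The C1q chains were macrophage genes in every library, and their level stood several times higher at 5 dpw than at 1 dpw. Levels are given per class as the UMIs of the gene over all UMIs of that class, in CPM, and they are compared between cells and libraries, not between genes. In macrophage-like cells C1qa stood at 205 (195 to 214) CPM in wild-type and 350.5 (335 to 366) in knockout wounds at 1 dpw, against 1419 (1399 to 1439.7) and 1182 (1158 to 1207) respectively at 5 dpw. C1qb stood at 309.7 (298 to 321) CPM in wild-type and 456 (439 to 473) in knockout wounds at 1 dpw, against 1578 (1556 to 1599.5) and 1477 (1449.7 to 1504) respectively at 5 dpw. C1qc stood at 146 (138 to 154) CPM in wild-type and 210.2 (199 to 222) in knockout wounds at 1 dpw, against 766 (751 to 781) and 595 (578 to 612) respectively at 5 dpw. Every chain was lowest in wild-type wounds at 1 dpw, second lowest in knockout wounds at 1 dpw, and highest in wild-type wounds at 5 dpw, with no overlap of neighbouring intervals. Macrophage-like cells held 97.7 to 99.0% of all C1qa UMIs of a library, 95.2 to 97.6% of those of C1qb and 97.7 to 98.6% of those of C1qc.

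**Figure D1:**
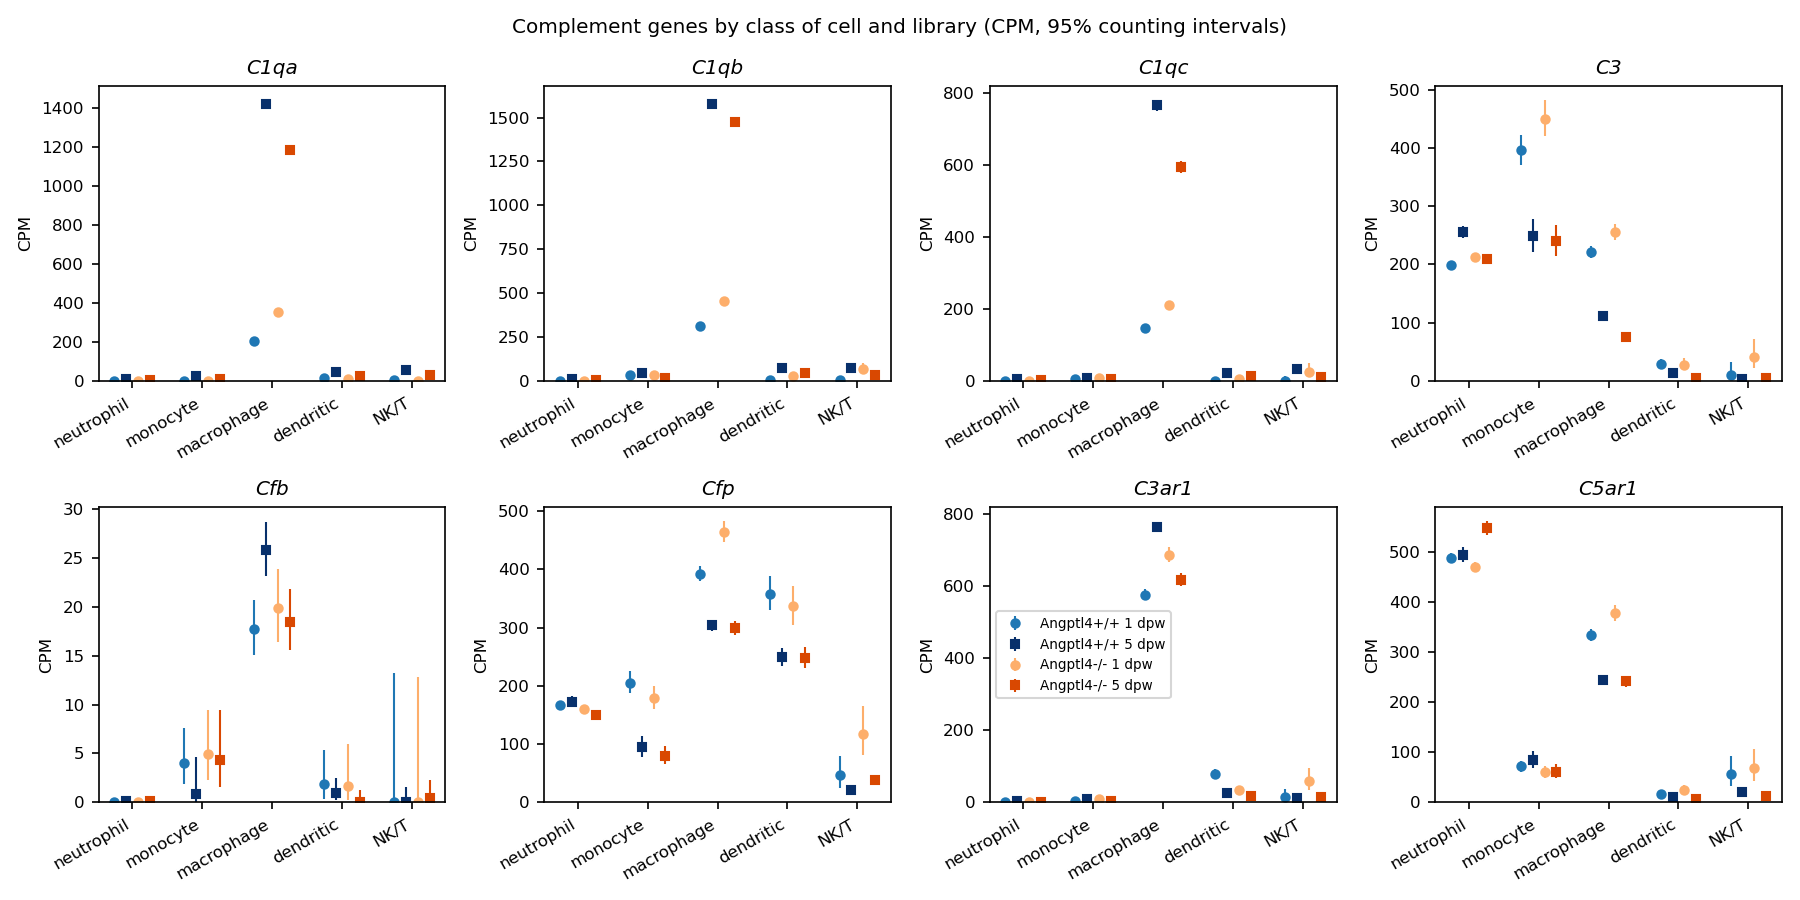
Level of each gene (CPM, linear axis from 0) in the 5 larger classes of cells, with 1 point per library (circles 1 dpw, squares 5 dpw, blue Angptl4+/+, orange Angptl4-/-) and bars for the 95% counting interval. C1qa, C1qb, C1qc, Cfb and C3ar1 stand high in the macrophage column alone, C3 is highest in monocyte-like cells at 1 dpw (396 and 450.4 CPM), Cfp is high in macrophage-like and dendritic cell-like cells, and C5ar1 is highest in neutrophil-like cells (472 to 549 CPM).

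Neutrophil-like cells held few C1q UMIs, and whether these were free RNA in the droplets was not tested. Their C1q levels were 0.104 to 0.734% of the macrophage-like level of the same library, and no neutrophil-like cell held UMIs of all 3 chains in any library. Among 7 other macrophage genes (Apoe, Ms4a7, Mrc1, Cd68, Csf1r, Fn1 and Arg1) the median of the same percentage was 0.286%, 0.607%, 0.203% and 0.353% in wild-type wounds at 1 and 5 dpw and knockout wounds at 1 and 5 dpw. These 7 genes spread widely, from 0.109 to 0.390% for Arg1 up to 6.37 to 10.6% for Csf1r and 32.2 to 37.0% for Cd68, which neutrophils also express. Most neutrophil-like cells with a C1q UMI held 1 chain. In wild-type wounds at 5 dpw 178 cells held 1 chain, 5 held 2 and 0 held 3. At so few UMIs the absence of cells with all 3 chains does not show where the UMIs came from. After each cell was thinned to 1000 UMIs, so that depth did not differ, a C1qa UMI was seen in 8.91% and 40.0% of macrophage-like cells of wild-type wounds at 1 and 5 dpw, and in 12.02% and 34.2% of those of knockout wounds. The unthinned shares were 13.6%, 53.9%, 17.8% and 48.2% in the same order, at medians of 6829.5, 8327, 5832 and 11492 UMIs. In neutrophil-like cells the thinned shares were 0.0779%, 1.16%, 0.0544% and 0.293%, and the unthinned shares 0.257%, 3.19%, 0.189% and 1.09% at medians of 4683, 3218, 4636.5 and 3392 UMIs.

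The 3 chains were found together in part of the macrophage-like cells, and the share of cells with none of them was larger at 1 dpw. At 1000 UMIs per cell all 3 chains were detected in 3.49% of wild-type and 5.75% of knockout macrophage-like cells at 1 dpw, and in 24.7% and 19.3% respectively at 5 dpw. None of the 3 was detected in 84.9% and 45.4% of the wild-type cells at 1 and 5 dpw, and in 80.2% and 53.1% of the knockout cells. The macrophage-like cells thus included many without detectable C1q, more so at 1 dpw in both genotypes. C1qb supplied 41.9 to 46.9% of their C1q UMIs, C1qa 31.016 to 37.7% and C1qc 18.3 to 22.1%, which are shares of 3 prime end counts and not of transcripts per length. The smallest share of C1qa was in wild-type wounds at 1 dpw and the largest in wild-type wounds at 5 dpw.

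**Figure D2:**
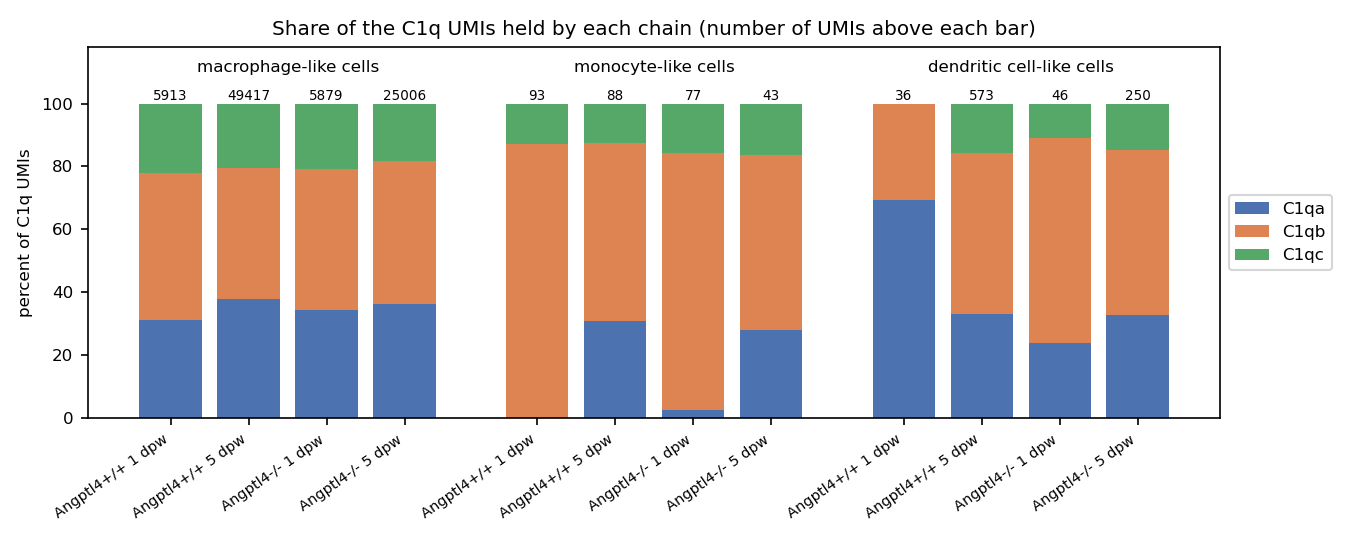
Share of the C1q UMIs (percent, stacked to 100) that came from C1qa, C1qb and C1qc in macrophage-like, monocyte-like and dendritic cell-like cells, with 1 bar per library and the number of C1q UMIs above it. The macrophage-like bars are alike, while the monocyte-like bars at 1 dpw are mostly C1qb (87.1% and 81.8%).

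Monocyte-like cells had a different mixture of chains, from few UMIs. C1qa had 0, 27, 2 and 12 UMIs there in wild-type wounds at 1 and 5 dpw and knockout wounds at 1 and 5 dpw, and a count of 0 in the first library allows up to 1.33 CPM, taking 3 UMIs as the limit. C1qb had 81, 50, 63 and 24 UMIs in 13, 9, 9 and 6 cells in the same order. A single cell supplied 23.5 to 54.2% of these C1qb UMIs, so the C1qb level of 17.3 to 41.7 CPM came from very few cells. C1qb was 8.64-fold higher in the macrophage-like than in the monocyte-like class at 1 dpw in wild-type wounds and 37.8-fold higher at 5 dpw. The folds in knockout wounds were 13.1 and 85.2. Dendritic cell-like cells had 6.73 to 71.6 CPM of C1qb, and 9.02 to 46.0 CPM of C1qa. These were 2.17 to 7.47% of the macrophage-like level of their library.

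C3 (ENSMUSG00000024164, chromosome 17 from 57203970 to 57228136), the central component, was found mainly in neutrophil-like, monocyte-like and macrophage-like cells. Among the classes its level was highest in monocyte-like cells at 1 dpw. Monocyte-like cells had 396 (370.4 to 423) CPM in wild-type and 450.4 (420.0 to 482) in knockout wounds at 1 dpw, against 248.75 (221 to 279) and 239.8 (215 to 267) respectively at 5 dpw. In macrophage-like cells C3 stood at 221 (212 to 231) CPM in wild-type and 255 (243 to 269) in knockout wounds at 1 dpw, against 111 (105 to 117) and 75.5 (69.5 to 81.9) respectively at 5 dpw. Both 5 dpw libraries were below both 1 dpw libraries in these classes, without overlap of the intervals. Neutrophil-like cells had 199.5 (193 to 206) CPM in wild-type and 214 (207 to 220.3) in knockout wounds at 1 dpw, against 256 (245 to 267) and 209.7 (202 to 218) respectively at 5 dpw, and here the 4 libraries lay close together. C3 was lower in the macrophage-like than the monocyte-like class of each library, by log2 ratios of -0.84 (-0.95 to -0.72), -1.16 (-1.35 to -0.98), -0.82 (-0.94 to -0.69) and -1.67 (-1.87 to -1.47) in wild-type wounds at 1 and 5 dpw and knockout wounds at 1 and 5 dpw. Neutrophil-like cells, the most numerous class, held 54.9 to 73.3% of all C3 UMIs, and macrophage-like cells held 16.5 to 36.2%. In dendritic cell-like cells C3 was low in every library. Their level was 4.30 to 28.7 CPM, and at 1000 UMIs per cell a C3 UMI was seen in 0.478 to 2.27% of them against 22.0 to 37.8% of monocyte-like cells. The unthinned ranges were 4.78 to 17.045% and 71.8 to 92.9%, at medians of 12912 to 14013.5 and 9571 to 14668.5 UMIs.

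Of the alternative pathway genes, Cfb was rare and found almost only in macrophage-like cells, whereas Cfp was spread over all myeloid classes. Cfb (ENSMUSG00000090231, chromosome 17 from 34856374 to 34862518) stood in macrophage-like cells at 17.7 (15.1 to 20.7) CPM in wild-type and 19.9 (16.4 to 23.9) in knockout wounds at 1 dpw, against 25.8 (23.1 to 28.7) and 18.5 (15.6 to 21.8) respectively at 5 dpw, highest in wild-type wounds at 5 dpw. The interval of that library overlapped that of knockout wounds at 1 dpw, and the intervals of the other 3 libraries overlapped. Neutrophil-like cells held 0, 1, 0 and 2 Cfb UMIs in the 4 libraries, and monocyte-like cells 0.835 to 4.97 CPM. Macrophage-like cells held 91.3 to 98.3% of all Cfb UMIs. Cfb is overlapped on the same strand over 6107 bases by the annotated gene Gm20547, with which it shares 75.5% of its 31-base words, so its count is uncertain. Gm20547 itself had 0 UMIs in macrophage-like and neutrophil-like cells of every library. Cfb also lies 1.07 Mb from Angptl4, the gene that was targeted, so its genotype difference and that of the region around the deletion cannot be told apart. C3 is on the same chromosome, 23.42 Mb from Angptl4.

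Cfp (ENSMUSG00000001128, chromosome X from 20925454 to 20931555) stood in macrophage-like cells at 392 (379.6 to 406) CPM in wild-type and 465 (447 to 483) in knockout wounds at 1 dpw, against 304 (294 to 313) and 299.5 (287 to 312) respectively at 5 dpw. Dendritic cell-like cells came next, with 358 (329 to 388) CPM in wild-type and 337 (305 to 371) in knockout wounds at 1 dpw, against 249.16 (234 to 265) and 248 (231 to 267) respectively at 5 dpw. In both classes the 1 dpw libraries were above the 5 dpw libraries. Monocyte-like cells had 205 and 179.6 CPM at 1 dpw and 95.2 and 80.2 CPM at 5 dpw (wild-type first), and neutrophil-like cells 150 to 173 CPM over the 4 libraries. Cfp was 1.75 to 2.91-fold higher in macrophage-like than in neutrophil-like cells of the same library.

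The receptors for the cleavage fragments of C3 and C5 differed in where they were found, C3ar1 in macrophage-like cells and C5ar1 in neutrophil-like and macrophage-like cells. C3ar1 (ENSMUSG00000040552, chromosome 6 from 122847138 to 122856161) stood in macrophage-like cells at 575 (559.7 to 591) CPM in wild-type and 686 (665 to 708) in knockout wounds at 1 dpw, against 763 (748 to 778) and 616 (599 to 634) respectively at 5 dpw. The order of its levels, wild-type at 1 dpw, knockout at 5 dpw, knockout at 1 dpw and wild-type at 5 dpw from low to high, held without overlap of the intervals. Monocyte-like cells had 4.33 to 9.39 CPM and neutrophil-like cells 1.53 to 4.86 CPM, so C3ar1 was 73.0 to 142-fold higher in the macrophage-like than in the monocyte-like class. At 1000 UMIs per cell a C3ar1 UMI was seen in 40.5% to 51.5% of macrophage-like and 0.147 to 0.425% of neutrophil-like cells, and the unthinned ranges were 76.1 to 88.3% and 0.743 to 1.48%. Dendritic cell-like cells had 78.3 CPM in wild-type wounds at 1 dpw and 18.5 to 32.8 CPM in the other libraries.

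C5ar1 (ENSMUSG00000049130, chromosome 7 from 16246743 to 16259540), the chemotactic receptor for C5a, stood in neutrophil-like cells at 489.7 (480.0 to 499.6) CPM in wild-type and 472 (462 to 482) in knockout wounds at 1 dpw, against 495 (480.2 to 510.0) and 549 (536 to 562) respectively at 5 dpw. Knockout wounds at 5 dpw were the highest, and the intervals of the wild-type libraries overlapped each other. In macrophage-like cells C5ar1 stood at 334 (322 to 347) CPM in wild-type and 379 (363 to 395) in knockout wounds at 1 dpw, against 245 (237 to 254) and 242 (231 to 253) respectively at 5 dpw, with both 1 dpw libraries above both 5 dpw libraries. The level in neutrophil-like cells exceeded that in macrophage-like cells by 1.24 to 2.27-fold within each library. Monocyte-like cells had 59.7 to 84.3 CPM and dendritic cell-like cells 7.28 to 23.8 CPM. Neutrophil-like cells held 55.6 to 78.6% of all C5ar1 UMIs.

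In macrophage-like cells the C1q chains stood higher at 5 dpw than at 1 dpw, and C3 stood lower. In wild-type wounds the log2 ratio of 5 dpw to 1 dpw was 2.79 (2.72 to 2.86) for C1qa, 2.35 (2.29 to 2.41) for C1qb and 2.39 (2.31 to 2.48) for C1qc, which is 6.93, 5.10 and 5.26-fold higher at 5 dpw. In knockout wounds it was 1.75 (1.68 to 1.82), 1.70 (1.63 to 1.76) and 1.501 (1.41 to 1.59), or 3.37, 3.24 and 2.83-fold. C3, on which the pathways converge, had a log2 ratio of -0.996 (-1.09 to -0.90) in wild-type wounds, 1.99-fold lower and so just short of 2-fold, and of -1.76 (-1.90 to -1.62) in knockout wounds, 3.38-fold lower at 5 dpw. The 2-fold rule was passed by 3 of the 8 genes in wild-type wounds, all higher, beside 11.0% of the 8857 genes with at least 100 UMIs over both libraries, and 4 of 8 in knockout wounds, 3 higher and C3 lower, beside 8.28% of 7897 genes. The median log2 ratio of the 8 genes was 0.47 in wild-type and -0.13 in knockout wounds, against 0.15 and 0.07 over all genes counted. Of all genes past 2-fold 60.4% were higher at 5 dpw in wild-type macrophage-like cells, and 44.2% once the median ratio of all genes was set to 0.

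The remaining genes moved by less than 2-fold in macrophage-like cells. C5ar1 had a log2 ratio of -0.45 (-0.52 to -0.38) in wild-type and -0.65 (-0.74 to -0.56) in knockout wounds, and Cfp one of -0.37 (-0.44 to -0.31) and -0.63 (-0.71 to -0.55), so both were lower at 5 dpw in each genotype. C3ar1 was higher at 5 dpw in wild-type wounds, at 0.41 (0.36 to 0.46), and lower in knockout wounds, at -0.15 (-0.22 to -0.09). The ratio of Cfb was 0.54 (0.26 to 0.82) in wild-type wounds, and in knockout wounds, at -0.11 (-0.47 to 0.26), a difference was not detectable at this depth. Neutrophil markers moved with the day in these cells: their summed level in macrophage-like cells was 14599 and 12787 CPM at 1 dpw and 2704.5 and 3125 CPM at 5 dpw (wild-type first), against 112780 to 226990 CPM in neutrophil-like cells. Each of the 12 markers was above 0 in the macrophage-like cells of every library. Whether the UMIs of these markers came from neutrophils was not tested, and neither was their part in the lower C3, Cfp and C5ar1 at 5 dpw.

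**Figure D3:**
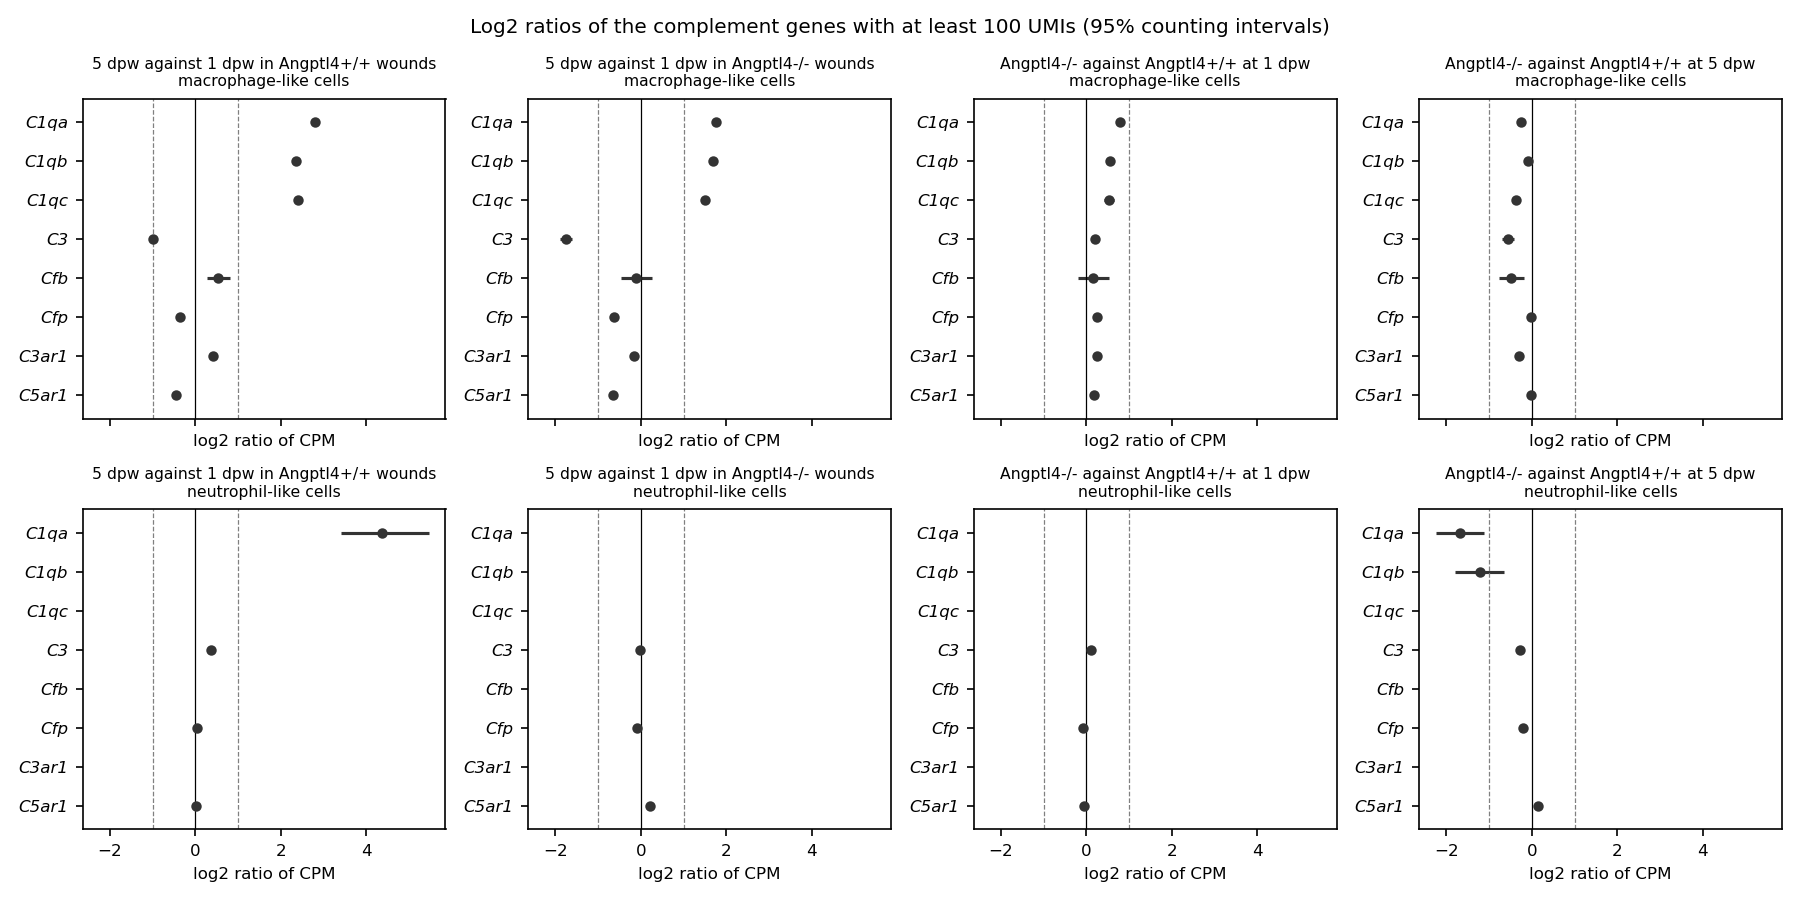
Log2 ratios of CPM (horizontal axis; bars, 95% counting intervals; dashed lines, 2-fold) for the complement genes with at least 100 UMIs over both libraries, in macrophage-like cells (upper panels) and neutrophil-like cells (lower panels), for the day comparison in each genotype and the genotype comparison on each day. The C1q chains lie beyond the 2-fold line between the days in macrophage-like cells of both genotypes, from 1.501 to 2.79, and between the genotypes no gene of the upper panels reaches it.

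Between the genotypes none of the 8 genes passed 2-fold in macrophage-like cells, and the direction for the C1q chains turned over between the days. At 1 dpw the log2 ratio of knockout to wild-type wounds was 0.78 (0.68 to 0.87) for C1qa, 0.56 (0.48 to 0.64) for C1qb and 0.53 (0.42 to 0.64) for C1qc, so all 3 were higher in the knockout. At 5 dpw it was -0.26 (-0.30 to -0.23), -0.10 (-0.13 to -0.06) and -0.36 (-0.41 to -0.31), so all 3 were lower. C3ar1, the C3a receptor, followed the same order, with 0.25 (0.19 to 0.31) at 1 dpw and -0.31 (-0.36 to -0.26) at 5 dpw, and C3 had 0.21 (0.11 to 0.30) and -0.56 (-0.70 to -0.42). With the cells thinned to 1000 UMIs the C3 ratio at 1 dpw was -0.03, so its direction there changed with this setting. Thinning also left out cells under 1000 UMIs and gave each cell equal weight, which was not separated from depth. Cfb had 0.16 (-0.20 to 0.52) at 1 dpw, where no difference was detectable at this depth, and -0.48 (-0.78 to -0.20) at 5 dpw. For Cfp the ratio was 0.24 (0.17 to 0.32) and -0.02 (-0.09 to 0.06), and for C5ar1 0.18 (0.10 to 0.26) and -0.02 (-0.10 to 0.06), so at 5 dpw neither gene differed beyond counting error. Past 2-fold were 0 of 8 genes at 1 dpw, beside 0.728% of all 7827 genes counted, and 0 of 8 at 5 dpw, beside 1.19% of 8859. With 1 library per condition, a difference between genotypes and a difference between 2 wounds or sorts of the same genotype cannot be told apart. The study lists different sources for the mice, Invivos for wild-type and MMRRC for knockout. For all 8 genes genotype and source of the mice cannot be told apart either.

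Within the sub-clusters of macrophage-like cells C1q also stood higher at 5 dpw. The 4750 monocyte-like and macrophage-like cells were divided into 8 sub-clusters, called here by number and leading genes, again without complement genes among the genes used. Sub-cluster 1 (738 cells, led by Cbr2, Folr2, Ccl8 and Gas6) had the highest C1qa in every library, at 934 CPM in wild-type and 1615.5 in knockout wounds at 1 dpw, against 2725 and 2395 respectively at 5 dpw. Sub-cluster 0 (1080 cells, led by Mt2, Ptges, Cxcl3 and Sema3c) had the lowest of the macrophage-like sub-clusters, at 19.0 CPM in wild-type and 44.6 in knockout wounds at 1 dpw, against 733 and 275 respectively at 5 dpw. It also had the largest log2 ratio of C1qa between the days in wild-type wounds, from 48 UMIs in 12 of 335 cells at 1 dpw. In CPM the difference was largest in sub-cluster 1. In sub-cluster 6 (376 cells, led by the interferon-induced genes Cxcl10, Ifit1bl1 and Ifit2) C1qa stood at 214 CPM in wild-type and 426 in knockout wounds at 1 dpw, against 1544 and 1035 respectively at 5 dpw. The remaining profile printed here is that of sub-cluster 7 (257 cells, led by Retnla, Lyz1 and Mgl2), with 217 CPM in wild-type and 268 in knockout wounds at 1 dpw, against 853 and 518 respectively at 5 dpw. Sub-cluster 4 (543 cells, led by Ace and Prtn3) held the monocyte-like cells, with 0 to 22.4 CPM.

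Sub-cluster 2 (674 cells) was led by the mast cell and basophil genes Cma1, Mcpt8, Mcpt4 and Cpa3 and the neutrophil genes Retnlg and S100a8, so it was left unnamed and its values are given apart. Over the 6 other sub-clusters of macrophage-like cells, the log2 ratio of C1qa at 5 dpw to 1 dpw ran from 1.54 to 5.27 in wild-type and from 0.57 to 2.78 in knockout wounds. For C1qb the ranges were 0.94 to 5.24 and 0.54 to 2.93, and for C1qc 1.10 to 5.07 and 0.33 to 2.93. All 3 chains were higher at 5 dpw in 6 of 6 sub-clusters in both genotypes, each with its counting interval above 0. C3 was lower at 5 dpw in 6 of 6 sub-clusters in both genotypes, from -1.22 to -0.13 in wild-type (interval below 0 in 5 of 6) and from -2.22 to -0.93 in knockout wounds (6 of 6). C5ar1 was likewise lower in 6 of 6 in both genotypes, with an interval below 0 in 4 and 5 of them. The genotype comparison was less even: at 1 dpw knockout wounds were higher in 5 of 6 sub-clusters for C1qa, 6 for C1qb and 5 for C1qc, with an interval above 0 in 4, 6 and 5. At 5 dpw they were lower in 6 of 6 for each chain, with an interval below 0 in 6, 5 and 6. In sub-cluster 2 the C1qa ratio between the days was 3.58 in wild-type and 3.11 in knockout wounds, that of C3 was -0.99 and -1.64, and the genotype ratio of C1qa was -0.11 at 1 dpw and -0.58 at 5 dpw. These sub-clusters come from the same 4 libraries and are not replicates of a condition. The intervals take each UMI as independent, while C1q UMIs were held by few cells in places. In sub-cluster 7 at 1 dpw C1qb had 140 UMIs in 10 wild-type cells and 152 UMIs in 8 knockout cells.

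**Figure D4:**
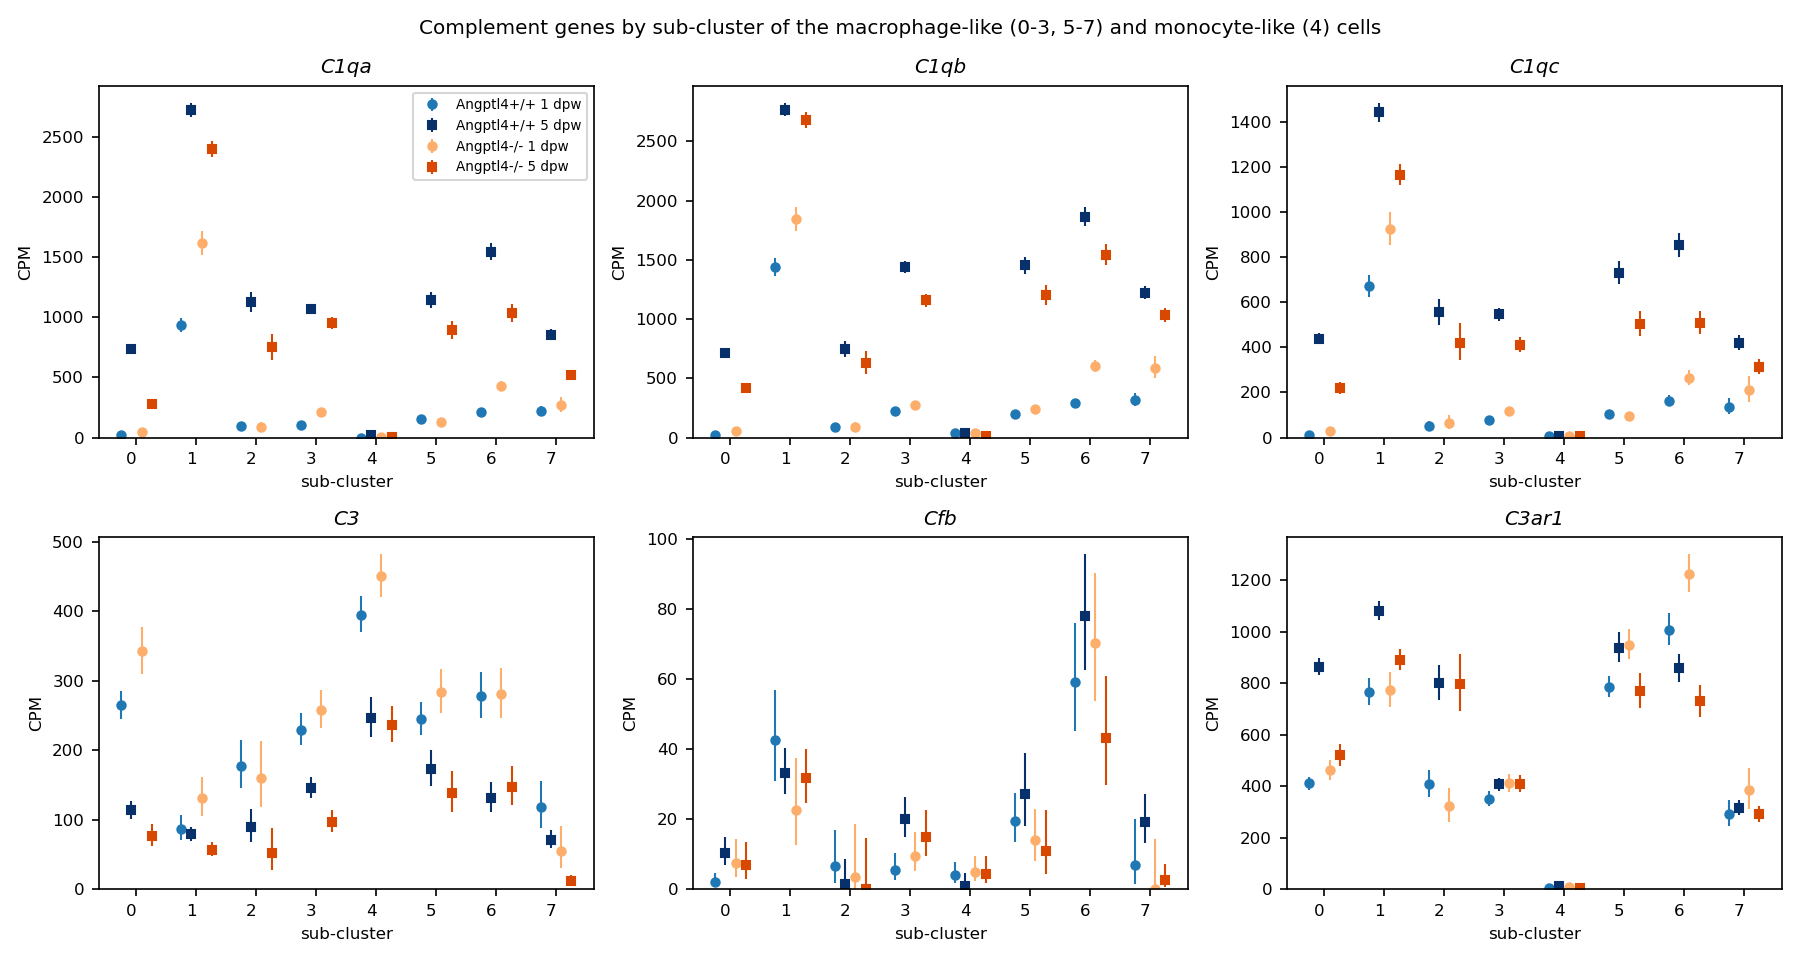
Level (CPM, linear axis from 0; bars, 95% counting intervals) of C1qa, C1qb, C1qc, C3, Cfb and C3ar1 in the 8 sub-clusters of the macrophage-like (0 to 3 and 5 to 7) and monocyte-like (4) cells, with 1 point per library. Sub-cluster 1 is highest for the C1q chains (C1qa 934 to 2725 CPM), sub-cluster 6 for Cfb and sub-cluster 4 for C3, and the squares (5 dpw) stand above the circles (1 dpw) for C1q in sub-clusters 0 to 3 and 5 to 7.

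The make-up of the macrophage-like cells also differed between the days. Sub-cluster 1 was 10.5% of the divided cells in wild-type and 9.77% in knockout wounds at 1 dpw, and 20.8% and 19.8% respectively at 5 dpw. When the UMI share of each sub-cluster was held at its 1 dpw value, the log2 ratio of C1qa between the days was 2.59 in wild-type and 1.44 in knockout wounds, against 2.79 and 1.75 as measured. Changing the shares alone, at 1 dpw levels, gave 0.62 and 0.77. These values hold only for sub-clusters made after the libraries were integrated, a step that aligns cells of different libraries. Without integration, a cluster led by Lpl, C1qa and Retnla held 224 and 1250 wild-type cells at 1 and 5 dpw. It held 196 and 457 knockout cells. The calculation was not made on those clusters, so the parts of level and shares were not settled. A change of make-up inside a sub-cluster was not separated from a change of level. C3 gave -0.83 and -1.40 at fixed shares and -0.21 and -0.32 from shares alone.

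The other genes had peaks of their own. Cfb was highest in the interferon-induced sub-cluster 6, at 59.0 CPM in wild-type and 70.4 in knockout wounds at 1 dpw, against 77.9 and 43.3 respectively at 5 dpw, and next in sub-cluster 1, at 22.6 to 42.5 CPM, while sub-clusters 0 and 2 stayed between 0 and 10.4 CPM. C3ar1 was highest at 1 dpw in sub-cluster 6, with 1008 (947 to 1071) CPM in wild-type and 1225 (1153 to 1301) CPM in knockout wounds, and at 5 dpw in sub-cluster 1, with 1082 (1046 to 1119) and 890.4 (851 to 931) CPM. Cfp, whose product stabilises the C3 convertase, was highest at 1 dpw in sub-cluster 1 (677 and 748 CPM) and at 5 dpw in sub-cluster 7 (456 and 480.1 CPM). C3 had its lowest level in the Retnla-led sub-cluster 7, at 119 CPM in wild-type and 54.4 in knockout wounds at 1 dpw, against 70.9 and 11.7 respectively at 5 dpw, except in wild-type wounds at 1 dpw, where sub-cluster 1 was lower at 86.9 CPM. The cells of sub-cluster 2 were shallow, with medians of 1285 to 2796 UMIs. The mast cell and basophil markers summed to 1138 and 8054 CPM there at 5 dpw and to 0 at 1 dpw, and neutrophil markers to 73167 and 39824 CPM at 1 dpw. Without sub-cluster 2 the ratio of C1qa between the days was 2.75 in wild-type and 1.71 in knockout wounds, and that of C3 was -1.002 and -1.77.

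In neutrophil-like cells C3, Cfp and C5ar1 were well counted, and C3 and Cfp differed more between subsets of neutrophils than between conditions. These cells were divided into a Cxcr2-high and a Cxcr2-low subset by k-means with 2 groups. C3 had 406, 385, 429 and 324 CPM in the Cxcr2-low subset, in wild-type wounds at 1 and 5 dpw and knockout wounds at 1 and 5 dpw, and 96.7, 154, 99.5 and 122 CPM in the Cxcr2-high subset. The log2 ratio of Cxcr2-low to Cxcr2-high cells was 2.07 (1.97 to 2.17), 1.32 (1.19 to 1.45), 2.11 (2.01 to 2.21) and 1.41 (1.29 to 1.53). C3 was higher in the Cxcr2-low subset in 4 of 4 libraries, and more so at 1 dpw. Cfp went the other way, with 78.1, 108, 69.4 and 99.8 CPM in Cxcr2-low and 212, 224, 208 and 189 CPM in Cxcr2-high cells, a log2 ratio of -1.44 (-1.58 to -1.31), -1.06 (-1.23 to -0.89), -1.58 (-1.73 to -1.43) and -0.92 (-1.07 to -0.77). C5ar1 had 462, 406, 443 and 463 CPM and 504, 565, 487 and 614 CPM, with smaller log2 ratios of -0.13 (-0.19 to -0.06), -0.48 (-0.57 to -0.39), -0.14 (-0.20 to -0.07) and -0.41 (-0.48 to -0.33). Cfp and C5ar1 were thus lower in Cxcr2-low cells in 4 of 4 libraries. The subsets were made from all variable genes of the same cells, with these genes left out, and their separation was not tested.

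**Figure D5:**
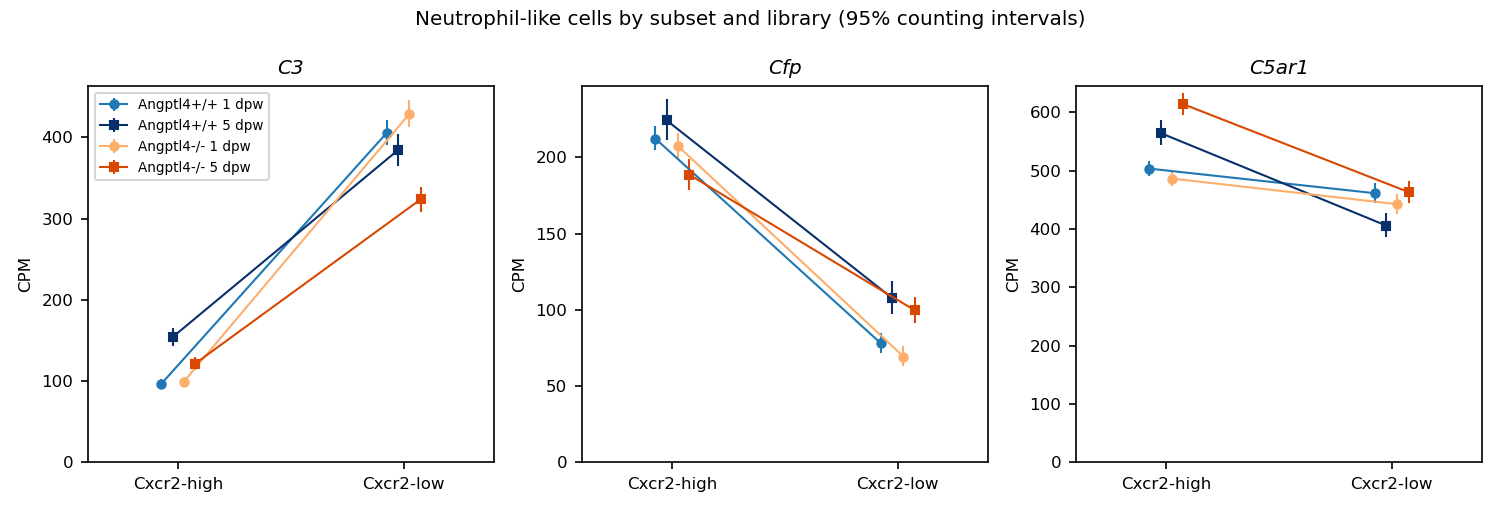
Level (CPM, linear axis from 0; bars, 95% counting intervals) of C3, Cfp and C5ar1 in the Cxcr2-high and Cxcr2-low subsets of neutrophil-like cells, with 1 line per library. C3 is higher in the Cxcr2-low subset in all 4 lines, from 96.7 to 406 CPM in wild-type wounds at 1 dpw, while Cfp and C5ar1 are lower there.

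Between the days, the log2 ratio in neutrophil-like cells was 0.36 (0.28 to 0.43) for C3 in wild-type wounds and -0.03 (-0.10 to 0.05) in knockout wounds, 0.04 (-0.04 to 0.13) and -0.09 (-0.18 to -0.01) for Cfp, and 0.02 (-0.04 to 0.07) and 0.22 (0.17 to 0.26) for C5ar1. None of these reached 2-fold, whereas the median of all genes counted was 0.65 in wild-type and 0.68 in knockout wounds. Relative to that median C3, Cfp and C5ar1 stood at -0.29, -0.61 and -0.64 in wild-type wounds, so their direction depends on the scaling. Of the genes past 2-fold 94.2% were higher at 5 dpw in wild-type and 94.7% in knockout neutrophil-like cells, and 51.0% and 57.0% once the median was set to 0. Whether the C1qa UMIs of neutrophil-like cells were free RNA in the droplets was not tested. C1qa was the 1 of 4 counted genes past 2-fold in wild-type wounds, from 0.509 to 10.4 CPM, beside 32.3% of 6603 genes. In knockout wounds 0 of 3 were past 2-fold, beside 34.5% of 6668 genes. C1qa was not counted there, with 7 UMIs at 1 dpw and 40 at 5 dpw and a log2 ratio of 3.09. The counts of the genotypes therefore cover different genes.

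Between the genotypes the log2 ratio of C3 in neutrophil-like cells was 0.10 (0.03 to 0.16) at 1 dpw and -0.29 (-0.37 to -0.20) at 5 dpw, that of Cfp -0.07 (-0.14 to 0.00) and -0.21 (-0.31 to -0.11), and that of C5ar1 -0.05 (-0.10 to -0.01) and 0.15 (0.09 to 0.20). At 1 dpw 0 of 3 counted genes passed 2-fold, beside 0.959% of 6468 genes. At 5 dpw 2 of 5 passed, C1qa at -1.68 (-2.25 to -1.12) and C1qb at -1.21 (-1.79 to -0.64), both lower in knockout wounds, beside 1.03% of 6702 genes. C1qa had 90 UMIs in wild-type and 40 in knockout wounds, and C1qb 70 and 43, so both met the minimum of UMIs mainly in wild-type wounds. The source of the UMIs of both genes in these cells was not tested. Macrophage-like cells, the main holders of both, made up 31.5% of the wild-type and 13.7% of the knockout library at 5 dpw. The part of that share in these levels was not tested.

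Of 51 other complement genes listed (classical, lectin, alternative and terminal components, receptors and regulators), 50 were in the files, and 11 to 13 of them reached 100 UMIs over both libraries in macrophage-like cells and 9 or 10 in neutrophil-like cells. In macrophage-like cells 5 of 12 were past 2-fold at 5 dpw in wild-type wounds, 4 higher and 1 lower, and again 5 of 12, 4 higher and 1 lower, in knockout wounds, beside 11.0% and 8.28% of all genes counted. C4b, a classical pathway component, had 9.60 CPM in wild-type and 10.9 in knockout wounds at 1 dpw, against 31.2 and 23.2 respectively at 5 dpw, a log2 ratio of 1.70 (1.36 to 2.05) in wild-type and 1.09 (0.67 to 1.53) in knockout wounds. Itgax, the alpha chain of complement receptor 4, had 10.9 CPM in wild-type and 8.99 in knockout wounds at 1 dpw, against 47.3 and 50.4 respectively at 5 dpw, with ratios of 2.11 (1.80 to 2.43) and 2.49 (2.07 to 2.93). C1qbp, which encodes a mitochondrial protein that can bind C1q, had ratios of 1.40 (1.13 to 1.67) and 1.30 (0.98 to 1.62). Cd93, once described as a C1q receptor, was lower at 5 dpw, going from 559.7 to 171 CPM in wild-type and from 476 to 209 CPM in knockout wounds, with ratios of -1.71 (-1.79 to -1.64) and -1.19 (-1.28 to -1.10). Fcna, a ficolin of the lectin pathway, passed 2-fold in wild-type wounds at 3.09 (2.06 to 4.34), from 0.893 to 7.61 CPM, and Colec12, a collectin, in knockout wounds at 1.39 (0.87 to 1.94), from 6.74 to 17.7 CPM. The minimum of 100 UMIs was taken over both libraries, and the genes past 2-fold higher, Fcna most of all, met it mainly at 5 dpw. Passing the rule in 1 genotype does not compare the genotypes.

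Between the genotypes, 0 of 11 other complement genes were past 2-fold in macrophage-like cells at 1 dpw, beside 0.728% of all genes, and 2 of 13 at 5 dpw, beside 1.19%. These were the lectins Colec12, higher in knockout wounds at 2.13 (1.66 to 2.62), and Fcna, lower at -1.01 (-1.66 to -0.40). The minimum of UMIs was again taken over both libraries. Colec12 met it mainly in knockout and Fcna mainly in wild-type wounds, so each was counted mostly through the genotype where it was higher. In neutrophil-like cells the same 4 of 10 were past 2-fold higher at 5 dpw in both genotypes, beside 30.5% and 32.7% of all genes counted (32.3% and 34.5% in either direction). They were C5ar2, the second C5a receptor, with 29.7 CPM in wild-type and 24.6 in knockout wounds at 1 dpw, against 71.9 and 73.5 respectively at 5 dpw, and Itgax with 18.4 CPM in wild-type and 14.8 in knockout wounds at 1 dpw, against 49.8 and 52.6 respectively at 5 dpw. The others were Calr, which encodes the chaperone calreticulin, at 1.05 (0.95 to 1.15) and 1.34 (1.24 to 1.44), and Cd46, a cofactor in the inactivation of C3b, at 1.30 (0.72 to 1.88) and 1.58 (1.03 to 2.14). Lower at 5 dpw were Cd93, at -1.84 (-1.95 to -1.74) in wild-type and -1.49 (-1.57 to -1.41) in knockout wounds, and, in knockout wounds, Cd55, a regulator that dissolves the convertases, at -1.89 (-2.66 to -1.20). The medians of these other genes were 0.24 and 0.63, against 0.65 and 0.68 over all genes counted. Set against those medians of all genes, none of the 4 higher genes passed 2-fold in wild-type wounds, and in knockout wounds Itgax did. None of 9 was past 2-fold between the genotypes on either day in neutrophil-like cells, beside 0.959% and 1.03% of all genes.

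The 8 genes fell into patterns when their levels were followed over the 46 points that clusters by libraries with at least 20 cells gave, on a log2(CPM + 10) scale. These Pearson correlations describe points that share libraries, depth and cells, and they carry no test. The C1q chains had r of 0.959 to 0.971 with each other, and 0.897 to 0.934 with Cfb and C3ar1. Their patterns thus lay close together, with macrophage-like cells high and the rest low. C3 had 0.717 with C5ar1 and -0.179 to -0.146 with the C1q chains. Among 8723 genes with at least 500 UMIs, the patterns nearest to the summed C1q chains were those of Rab3il1 (r = 0.949), Ms4a7 (r = 0.944) and Sept8 (r = 0.944). C3 was nearest to Igsf6 (r = 0.895), Cdc42ep2 (r = 0.865) and Tlr13 (r = 0.858), and Cfb to Ms4a7 (r = 0.964), Rusc2 (r = 0.962) and Sash1 (r = 0.959). For Cfp the nearest were Tgfbi (r = 0.889), Anxa2 (r = 0.885) and Synj1 (r = 0.876), for C3ar1 Rgl1 (r = 0.970), Ms4a7 (r = 0.969) and Cd109 (r = 0.969), and for C5ar1 Tlr4 (r = 0.966), Dmxl2 (r = 0.958) and Dusp1 (r = 0.944).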

How the data were processed

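Leukocytes (live, CD45+) of skin wounds were run as 4 droplet libraries (10x Chromium 3 prime V3 chemistry). The deposited values are whole UMI counts per gene and barcode that the authors made by aligning reads to mm10, without further normalization. Per the submitters' processing notes the tools were Cell Ranger 3.1.0 and Seurat 3.0.

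Barcodes with at least 200 genes and at most 10% mitochondrial UMIs were kept. Libraries were integrated with anchors in Seurat 5.3.0 (R 4.3.3) on 2000 variable genes and 30 dimensions, leaving out 59 complement genes and 18 genes of the study, and clustered at a Louvain resolution of 0.5. Each cluster was matched to the class whose markers most exceeded their mean share over clusters. It took that name if at least 3 markers of the class were present in at least 25% of its cells. Its leading genes also had to hold at least as many markers of that class as of any other, and a shallow cluster needed some. Class shares and values may therefore differ from those made with other names. Doublets were kept: scrublet scores (scanpy 1.11.5) marked 0 to 3 cells per library at the automatic threshold, so the top 4% were left out as an alternative. UMIs were summed per class and library and given as CPM with exact Poisson intervals, shares with Clopper-Pearson intervals, and log2 ratios with exact conditional binomial intervals (scipy 1.17.1, numpy 2.4.6), all at 95%. PCR and droplet losses are not in these intervals, and neither is the uneven spread of UMIs over cells. The 2-fold rule used genes with at least 100 UMIs over both libraries. Neutrophil-like cells were divided by k-means (scikit-learn 1.9.0). Figures were drawn with matplotlib 3.10.9. The log2 ratio and its interval were tested on simulated counts of independent UMIs. That test does not cover the uneven spread of UMIs over cells.

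Named are all 8 genes, other complement genes past 2-fold, the 3 genes most like each pattern, and Angptl4. Members and lists were chosen with earlier results of these data known, and so was the division of neutrophil-like cells. Gene positions are from GENCODE M21 (GRCm38) and promoters from RefSeq. Columns of other samples left unused numbered 0. Total UMIs per library were 26981596 to 32962595. The alternatives changed the cell filter, doublets, depth, scaling, UMI minimum, resolution, integration and variable genes, and 1 alternative, without sub-cluster 2, was chosen after seeing the data.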

Additional observations from a re-analysis of the deposited data

Results flagged for a closer look

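The genotype difference lay in opposite directions on the 2 days for several complement genes, and with 1 library per condition this difference between the days was not tested. In macrophage-like cells the log2 ratio of Angptl4-/- to Angptl4+/+ wounds changed from 0.78 at 1 dpw to -0.26 at 5 dpw for C1qa, a difference of -1.04. The same difference was -0.65 for C1qb and -0.89 for C1qc, so the 3 chains of 1 protein moved alike. C3 gave -0.76, and the receptor C3ar1 gave -0.56. For the C1q chains and C3ar1 the directions on both days were the same in all 9 alternatives that gave a value, with the C1qa ratio between 0.55 to 0.78 at 1 dpw and -0.38 to -0.24 at 5 dpw. In neutrophil-like cells the difference was -0.38 for C3, which went from 0.10 to -0.29, and 0.20 for C5ar1, which went from -0.05 to 0.15. The C5ar1 ratio at 1 dpw was 0.03 when the median ratio of all genes was set to 0, so its direction depends on the scaling.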

How the results depend on the processing

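No paired analysis was possible because each condition had 1 library, so there were no replicates to pair. In macrophage-like cells between the days, 3 of the 8 genes passed 2-fold in Angptl4+/+ wounds, and 4, C3 being the fourth, with thinned cells, at resolution 1.0, with complement genes among the variable genes, without doublets, with the median ratio set to 0, and without sub-cluster 2. In Angptl4-/- wounds the count was 4 under every alternative run. Between the genotypes at 1 dpw it was 0, and 1 with thinned cells (Cfb, at -1.04, from few UMIs). In neutrophil-like cells of Angptl4+/+ wounds the count of 1 between the days became 0 under the stricter cell filter (500 genes, 5% mitochondrial UMIs), without doublets, at resolution 1.0 and with complement genes among the variable genes, and 4 with a minimum of 30 UMIs or none. In Angptl4-/- wounds the count of 0 became 2 with a minimum of 30 UMIs and 3 with none. Between the genotypes at 5 dpw the count of 2 became 1 with thinned cells, 4 with a minimum of 30 UMIs or none, and 0 with complement genes among the variable genes. These neutrophil-like counts came from the C1q chains and C3ar1 at few UMIs, and the cause of their movement was not tested. The classes also lost cells under some alternatives, because some clusters took no class name. With complement genes among the variable genes this was a cluster of 2749 cells, nearest to the neutrophil markers. At resolution 1.0 it was clusters of 672, 278 and 33 cells, and without integration a cluster of 34 cells. No count changed direction. The share of all genes past 2-fold under each alternative is not given here. The counts under the alternatives are therefore not read as results about the 8 genes. Of 32 macrophage-like ratios, 32 stayed within their counting interval under the stricter filter, 32 without doublets, 32 without integration, 32 with complement genes among the variable genes and 32 without sub-cluster 2. Within it were 25 at resolution 1.0, 22 with the median set to 0, 14 with thinned cells and 13 with each cell weighted equally. Over both classes, 25 ratios with a setting changed sign. Depth limits Cfb, with 115 to 339 UMIs per library in macrophage-like cells, and C1q in monocyte-like cells.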

Other observations

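Lymphoid cells gave few complement UMIs, and most C1q UMIs lay in few cells. In NK cell/T cell-like cells C1qa had 1, 125, 0 and 77 UMIs in Angptl4+/+ wounds at 1 and 5 dpw and Angptl4-/- wounds at 1 and 5 dpw, C1qb 1, 177, 19 and 82 and C1qc 0, 74, 7 and 29. The 5 dpw C1qa UMIs sat in 4 of 226 Angptl4+/+ cells and 3 of 220 Angptl4-/- cells. In the same cells Cfp had 13, 50, 34 and 94 UMIs, C5ar1 16, 50, 20 and 32, C3ar1 4, 30, 17 and 37 and C3 3, 8, 12 and 10, and Cfb had 0, 0, 0 and 1. B cell-like cells numbered 5, 21, 2 and 27, and no gene of the 8 had more than 4 UMIs in any library of them.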
